A study of Mus musculus with 6 samples.

Results

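The 10 genes described here encode receptors, ligands, a ligand-selectivity enzyme and fate regulators of the Notch pathway: Notch1, Notch2, Dll1, Dll4, Jag1, Rfng, Hes1, Hes6, Atoh1 and Gfi1. They were chosen by name, as the core of the pathway in intestinal crypts, with earlier results of these data known. All 10 were on the array, with 14 probes among the 34885 probes that name 1 gene and 10 genes among the 19057 measured. Each gene was represented by its brightest probe, by the mean over all 6 arrays, and every further probe is also given. RNA was profiled on Illumina bead arrays from mouse small intestinal organoids, which are closed epithelial structures grown from crypts in gel. There were 3 Snai1 knockout samples, from mice of the strain Villin-Cre, Snai1fl/fl, in which both Snai1 copies are flanked by loxP sites, and 3 control samples from Villin-Cre mice. Both groups carried the Cre transgene, whose Villin promoter is active in intestinal epithelium, and both were exposed to 0.5 µM tamoxifen for 24 hours before harvest. Snai1 encodes a zinc-finger repressor, and the series title asks how it bears on lineage allocation and stem cell maintenance. The labels give neither age nor sex and do not say whether the 3 samples of a group came from separate animals, cultures or wells, and the spread behind each p-value may thus be partly or wholly technical.

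In the crypt, Delta and Jagged ligands on a cell bind Notch receptors on its neighbour, and the receptor is then cut so that its intracellular part enters the nucleus and, with the DNA-binding protein RBPJ, switches on Hes genes. Hes1 represses Atoh1, so cells that receive Notch signal keep a stem or absorptive fate. Cells that escape it express Atoh1, display Delta ligands and enter the secretory lineages of Paneth, goblet and enteroendocrine cells. Gfi1 acts downstream of Atoh1 in this choice.

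Promoter windows of the RefSeq set for GRCm38.p6 were read for these genes because Snail proteins are known to bind the E-box letters CACCTG, which read CAGGTG on the opposite strand. The set held 12 windows for 9 of the 10 genes, all but Hes1, and the 250 bases before each annotated start were searched on both strands. Of the 9 genes, 4 had the E-box in a window, Dll1, Hes6, Rfng and Gfi1, each once, against 19.4% of the 27025 genes in the set. Counted by window it was 4 of 12, against 17.2% of 32851. The core of RBPJ sites, TGGGAA, which reads TTCCCA on the opposite strand, was in none of the 12 windows, against 21.6% of all windows. A match is only a description of these letters, and binding was not measured. The windows with a match are shown, read 5′ to 3′ on the gene's strand up to the base before the start, with the E-box in capitals. Rfng is shown as 30 bases because its window overlaps annotated genes, among them Gps1.
Dll1 (chr17:15376933-15377182, minus strand): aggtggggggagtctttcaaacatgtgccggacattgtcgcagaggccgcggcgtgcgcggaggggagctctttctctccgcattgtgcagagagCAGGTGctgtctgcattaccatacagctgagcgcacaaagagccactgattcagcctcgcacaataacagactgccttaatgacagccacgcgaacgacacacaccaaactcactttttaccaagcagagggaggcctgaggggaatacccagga
Hes6 (chr1:91414039-91414288, minus strand): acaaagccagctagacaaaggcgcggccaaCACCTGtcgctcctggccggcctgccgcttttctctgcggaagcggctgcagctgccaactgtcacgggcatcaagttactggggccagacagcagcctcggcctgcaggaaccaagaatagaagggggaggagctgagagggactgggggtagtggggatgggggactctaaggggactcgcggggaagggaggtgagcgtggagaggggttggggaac
Rfng (chr11:120784313-120784342, minus strand): ctgcaagttaaaCACCTGaaccggcagcgg
Gfi1 (chr5:107725806-107726055, minus strand): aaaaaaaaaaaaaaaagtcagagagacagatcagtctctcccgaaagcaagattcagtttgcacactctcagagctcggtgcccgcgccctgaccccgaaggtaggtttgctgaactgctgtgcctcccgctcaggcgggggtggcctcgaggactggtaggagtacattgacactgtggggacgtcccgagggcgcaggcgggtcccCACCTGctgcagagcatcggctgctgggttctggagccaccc
The first base of the E-box lay 155 bases before the start in Dll1, 220 in Hes6, 126 in Rfng and 42 in Gfi1. The Dll1 and Hes6 windows belong to the more distal of their annotated starts, and the Gfi1 window likewise.

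The deposited values are on a log scale, taken here as base 2, and ran from 7.71 to 14.8 with a median of 7.87 and an upper quartile of 8.27. The arrays had been given the same distribution before deposit and correlated with each other at r = 0.994 to 0.997. Low values lie close together near the lowest one, so a difference at a dim probe may understate any change in RNA or may be noise. No detection calls were given. Of 10 listed genes typical of intestinal epithelium, 8 were brighter than the upper quartile, among them Vil1 and Cdh1, while Epcam was at 8.10 in knockout and 8.13 in control and Fabp1 was near the floor, at 7.78 and 7.80. Across the 10, the mean value per array was 10.9 to 11.1 in knockout and 10.9 to 11.2 in control. Lists of fibroblast and muscle genes (9 measured) and of immune genes (6 of 8 measured) lay at the bottom of the scale, at 7.85 to 7.87 and 7.84 to 7.86 per knockout array, against 7.86 to 7.87 and 7.84 to 7.86 per control array. Endothelial genes, of interest because endothelium also uses Dll4 and Notch receptors, averaged 8.10 to 8.13 in knockout and 8.09 to 8.18 in control, and its defining genes Pecam1, Cdh5 and Emcn were at 7.85, 7.88 and 7.79 in knockout and 7.86, 7.91 and 7.80 in control. Of the 8 genes of that list, 2 were brighter than the upper quartile, Egfl7 at 9.31 in knockout and 9.26 in control and Esam at 8.31 and 8.36. In organoids, a gene's value cannot tell fewer cells of a type from less RNA per cell.

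Snai1 itself gave no check of the labels. Its brighter probe read 7.91, 7.86 and 7.96 on the knockout arrays and 7.87, 7.93 and 7.94 on the control arrays (exact permutation p = 0.9), and its other probe 7.91, 7.83 and 7.88 against 7.88, 7.82 and 7.87 (exact permutation p = 0.6). Both sat near the median of all probes, where a loss would not be detectable, and the labels do not place them relative to the floxed exons. Notch1, Dll4 and Jag1 lie on chromosome 2, which also carries Snai1. The other 7 genes lie elsewhere, Hes6 on chromosome 1, Notch2 on 3, Gfi1 on 5, Atoh1 on 6, Rfng on 11, Hes1 on 16 and Dll1 on 17.

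None of the 10 Notch genes differed between knockout and control by the test across all genes (limma, Benjamini-Hochberg adjusted p under 0.05), a threshold passed by 0.131% of the 19057 genes, and by 0.0472% with the replicate number as a block, where again none of the 10 passed. The mean was higher in knockout for 9 of the 10 and lower for Notch2, while 49.3% of all genes were higher. At an unadjusted p under 0.05 there were 2, the ligand gene Dll1 and the fringe enzyme gene Rfng, both higher in knockout, against 7.22% of all genes. With the block it was again these 2, against 10.9% of all genes. Their unadjusted p depended on the setting. It was 0.11 for Dll1 and 0.083 for Rfng with a trended robust variance (limma). With the probes of each gene averaged it was 0.030 and 0.024 (limma). Leaving out an array put it on either side of 0.05, depending on the array. The largest difference was that of Notch1, at 0.17 on the log2 scale, or 1.12-fold. The median difference of the 10 was 0.063, against -0.00057 over all genes. Since 5 of the 10 were dimmer than the upper quartile of values and 2 of these, Notch2 and Atoh1, dimmer than the median, small differences at these genes say little about their RNA.

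**Figure D1:**
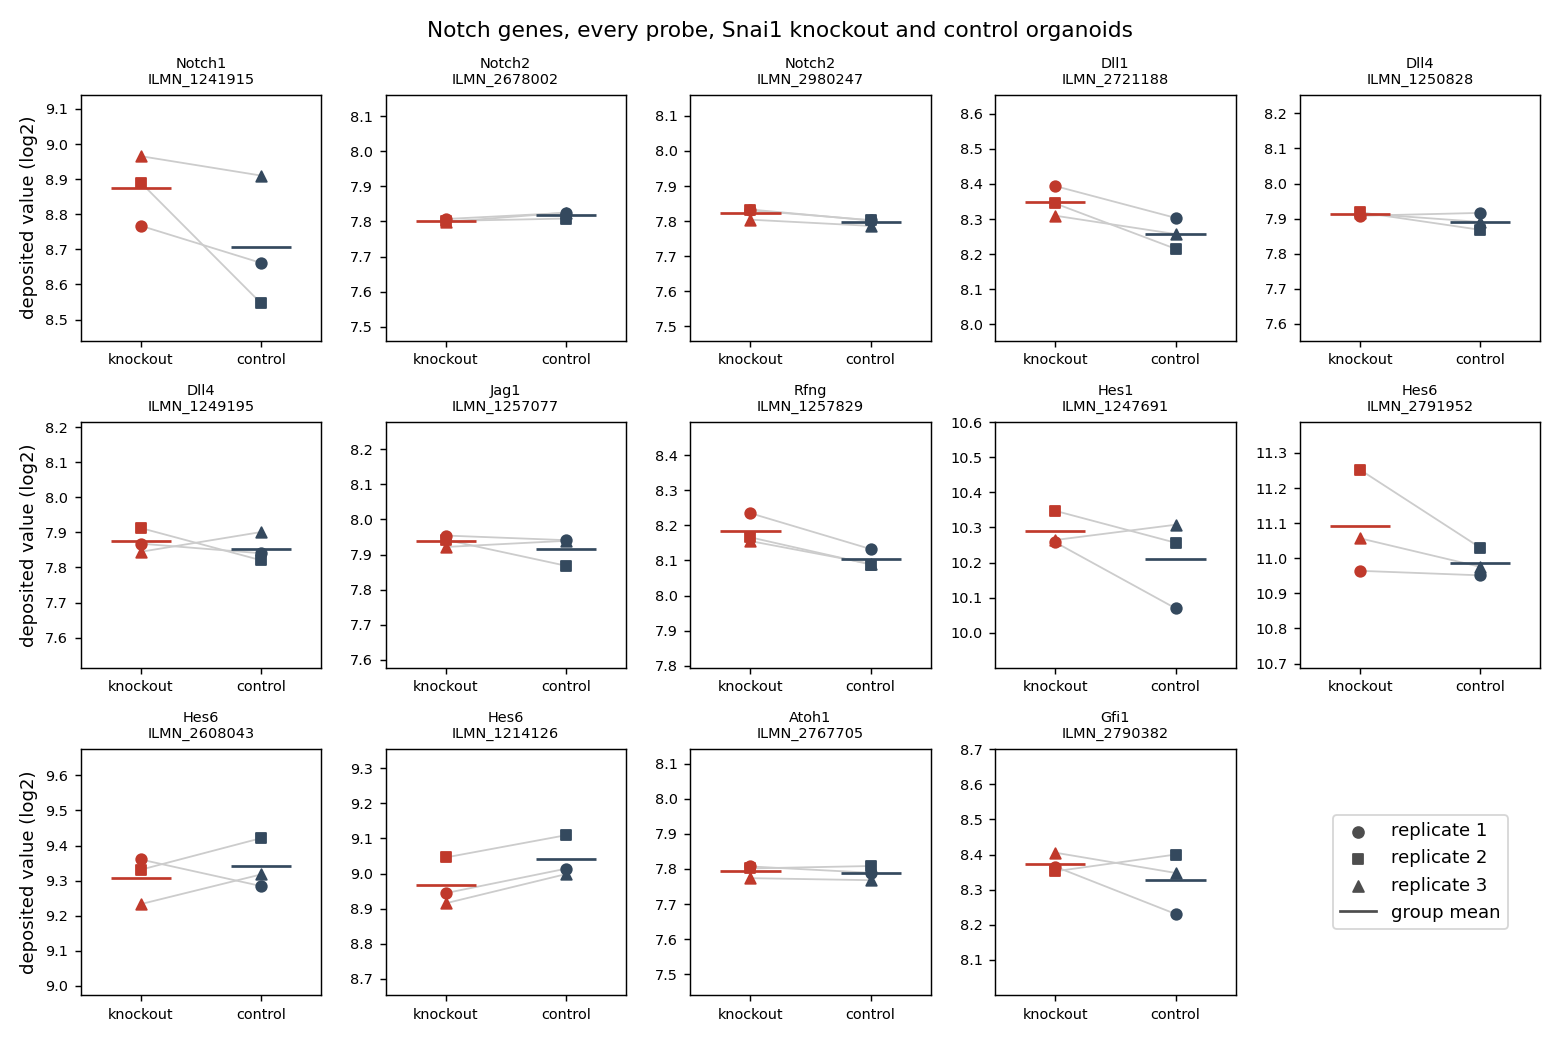
Deposited value (log2) at each of the 14 probes on the 3 knockout arrays (left, red) and the 3 control arrays (right, blue), with group means as bars and grey lines joining arrays of the same replicate number. Every panel spans the same range of values. The Dll1 and Rfng points do not overlap between groups, and those of Notch2 separate in opposite directions at its 2 probes.

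Notch1 is the main receptor of crypt progenitors together with Notch2. Notch1 read 8.77, 8.89 and 8.97 on the knockout arrays and 8.66, 8.55 and 8.91 on the control arrays. The highest control array lay above 2 of the knockout arrays, so the groups overlapped. The means were 8.87 ± 0.10 and 8.71 ± 0.19 (SD, n = 3 each), with a difference of 0.17 ± 0.10 (SE) and a 95% interval of -0.08 to 0.42, or 0.945-fold to 1.34-fold (adjusted p = 0.85, limma). Each knockout array was above the control array of its own number, by 0.11, 0.34 and 0.06. The difference was 0.088 without control replicate 2 and 0.27 without control replicate 3.

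Notch2 had a pair of probes, with only 20.4% and 19.6% of all probes dimmer than they were, and they pointed in opposite directions. The marginally brighter probe, ILMN_2678002, read 7.81, 7.80 and 7.80 on the knockout arrays and 7.82, 7.81 and 7.83 on the control arrays, all 3 knockout values lying below all 3 control values (difference -0.02 ± 0.02, SE; adjusted p = 0.95, limma). At ILMN_2980247 the order was turned round, with 7.83, 7.83 and 7.80 in knockout and 7.80, 7.80 and 7.79 in control. These gaps were about as small as the standard error, and averaging the probes gave a difference of 0.0043. The direction for Notch2 thus depended on the probe.

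The ligand Dll1, which marks secretory progenitors, read 8.39, 8.34 and 8.31 on the knockout arrays and 8.30, 8.22 and 8.26 on the control arrays. Every knockout array lay above every control array, though the lowest knockout and the highest control value were almost equal. Its means of 8.35 ± 0.042 and 8.26 ± 0.044 (SD, n = 3 each) differed by 0.09 ± 0.03 (SE), with a 95% interval of 0.0077 to 0.17 (unadjusted p = 0.037 and adjusted p = 0.65, limma). Replicate pairs differed by 0.09, 0.13 and 0.05. With 3 arrays against 3, an exact permutation test cannot go below p = 0.1, and Dll1 reached that value.

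Dll4, the other Delta ligand of the crypt, sat low on the scale. Its brighter probe read 7.91, 7.92 and 7.92 in knockout and 7.92, 7.87 and 7.89 in control, and its other probe 7.87, 7.91 and 7.84 against 7.84, 7.82 and 7.90. The groups overlapped at both probes, and the differences were 0.02 ± 0.02 and 0.02 ± 0.03 (SE). Jag1, a ligand of the Jagged type, was equally dim, at 7.95, 7.94 and 7.92 in knockout and 7.94, 7.87 and 7.94 in control. Its difference of 0.02 ± 0.03 (SE; adjusted p = 0.95, limma) rested on control replicate 2, the lowest of the 6, without which it was -0.00076.

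Rfng encodes radical fringe, a glycosyltransferase of the fringe family, whose members modify Notch receptors and change which ligands they answer to. It read 8.23, 8.17 and 8.16 on the knockout arrays and 8.13, 8.09 and 8.09 on the control arrays, with no overlap. The means were 8.19 ± 0.043 and 8.10 ± 0.025 (SD, n = 3 each), the difference 0.08 ± 0.03 (SE) and its 95% interval 0.0095 to 0.15, or 1.01-fold to 1.11-fold (unadjusted p = 0.033 and adjusted p = 0.62, limma; exact permutation p = 0.1). Among the 10 genes Rfng had the lowest p, and it ranked 998 of 19057 genes, with Dll1 at 1086. In all 3 genes whose groups did not overlap at the brightest probe, Dll1 and Rfng higher and Notch2 lower, the difference was under 0.1. Groups did not overlap for 12% of all genes, 6.2% being higher and 5.85% lower. By replicate number, 4 of the 10 genes were higher in knockout in 3 of 3 pairs (Notch1, Dll1, Rfng and Hes6) and 1 lower (Notch2), against 15.7% and 15.2% of all genes. Dll1 and Rfng also ran alike within each group, replicate 1 being the highest array of each group in both, and over the 6 arrays their values correlated at r = 0.963. Dll4 and Jag1 correlated with Dll1 at r = 0.774 and 0.787, but all 6 arrays share any group difference, so these values are descriptions.

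**Figure D2:**
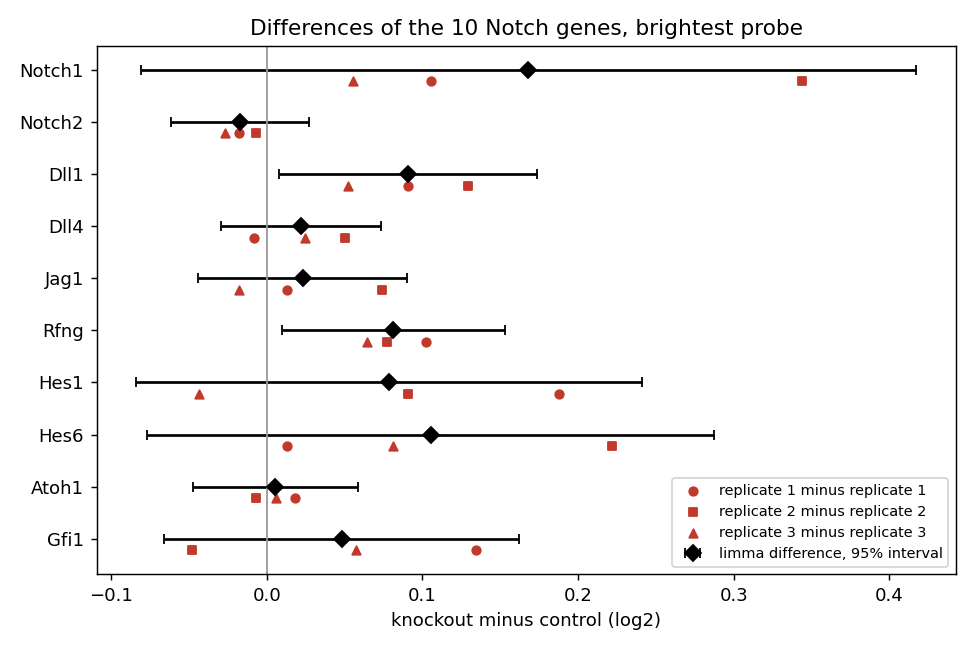
Difference of knockout minus control (log2) for the brightest probe of each gene: black diamonds are limma estimates with 95% intervals, not adjusted for the number of genes, and red symbols are the differences between arrays of the same replicate number. The intervals of Dll1 and Rfng lie above 0, from 0.0077 and 0.0095 upwards, and those of the other 8 genes include 0.

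Hes1, the repressor that Notch induces directly, was well above the bottom of the scale, brighter than 92.0% of all probes. It read 10.26, 10.35 and 10.26 on the knockout arrays and 10.07, 10.26 and 10.31 on the control arrays. Control replicate 1 was the lowest of the 6, and the groups overlapped. Without that array the difference was 0.0076. With all 6 arrays it was 0.08 ± 0.07 (SE) with a 95% interval of -0.08 to 0.24, or 0.943-fold to 1.18-fold (adjusted p = 0.92, limma). Replicates 1 and 2 were higher in knockout, by 0.19 and 0.09, and replicate 3 was lower, by -0.04. A difference within that interval was not resolved with 3 arrays a group.

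Hes6 encodes a Hes relative that counters Hes1 in other tissues, and it was the brightest of the 10 genes. Its 3 probes did not run the same way. ILMN_2791952, the brightest, read 10.96, 11.25 and 11.06 in knockout and 10.95, 11.03 and 10.98 in control, and differed by 0.11 ± 0.07 (SE; 95% interval -0.08 to 0.29; adjusted p = 0.89, limma). Without knockout replicate 2, its highest array, that difference was 0.025. ILMN_2608043 read 9.36, 9.33 and 9.23 against 9.28, 9.42 and 9.32, a difference of -0.03 ± 0.05 (SE). ILMN_1214126 read 8.94, 9.05 and 8.92 against 9.01, 9.11 and 8.998, and differed by -0.07 ± 0.05 (SE), lower in knockout in 3 of 3 replicate pairs where the brightest probe was higher in 3 of 3. All 3 probes are annotated to the same RefSeq transcript, while RefSeq lists several transcripts for Hes6, and the annotation does not say which of these each probe detects. The mean of the 3 probes differed by 0.00013.

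Atoh1, the switch to the secretory fate, was measured at the very bottom of the scale, where only 5.70% of probes were dimmer. It read 7.81, 7.80 and 7.77 on the knockout arrays and 7.79, 7.81 and 7.77 on the control arrays, the replicates ranging over as much as the groups (difference 0.0056 ± 0.022, SE; adjusted p = 0.997, limma). Of the secretory markers measured, 6 of 8 goblet, 5 of 5 Paneth and 7 of 8 enteroendocrine genes were brighter than the upper quartile. The goblet gene Muc2 averaged 11.52 in knockout and 11.22 in control, and the Paneth lysozyme gene Lyz1 averaged 14.45 in knockout and 14.55 in control. The goblet genes Fcgbp, at 7.82 and 7.85, and Agr2, at 7.97 and 7.98, and the enteroendocrine factor Neurod1, at 7.84 and 7.82, were dim, and none of 6 tuft cell markers exceeded the upper quartile. Such a low Atoh1 value leaves its RNA level, and any change of it, unmeasured. Gfi1, a repressor that acts after Atoh1, was brighter, at 8.37, 8.35 and 8.41 in knockout and 8.23, 8.40 and 8.35 in control. Its groups overlapped, with a difference of 0.05 ± 0.05 (SE; 95% interval -0.07 to 0.16; adjusted p = 0.94, limma), and leaving out control replicate 1, its lowest array, brought it to 0.00051.

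Beyond the 10 genes, 39 of 43 further genes of the pathway were measured, covering other ligands and receptors, fringe enzymes, the ubiquitin ligases that activate ligands, the proteases that cut the receptor, nuclear partners, inhibitors and targets. None of the 39 passed the test across all genes, and 6 had an unadjusted p under 0.05, against 7.22% of all genes (9 with the block, against 10.9% of all genes). The mean was higher in knockout for 21 and lower for 18, and the median difference was 0.0016. Their groups did not overlap for 9, of which 4 were higher and 5 lower, against 12% of all genes. At the proteolytic step, the subunits of gamma-secretase, which makes the last cut in the receptor, pointed both ways. Psen2, a catalytic presenilin, read 8.41, 8.40 and 8.44 in knockout and 8.54, 8.54 and 8.49 in control, a difference of -0.11 ± 0.02 (SE; adjusted p = 0.33, limma). Psenen, which encodes the subunit PEN-2, read 12.17, 12.24 and 12.14 against 12.26, 12.30 and 12.32, a difference of -0.12 ± 0.03 (SE; adjusted p = 0.50, limma). In both, every knockout array lay below every control array. The subunit genes Ncstn and Aph1a, named after their values were seen, differed by 0.10 ± 0.06 and 0.11 ± 0.05 (SE) in the opposite direction.

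Mib1 encodes the ubiquitin ligase that makes Delta and Jagged ligands active in the signal-sending cell. It read 8.92, 8.67 and 8.77 on the knockout arrays and 8.62, 8.49 and 8.53 on the control arrays, all 3 knockout values being higher, by 0.24 ± 0.07 (SE; adjusted p = 0.50, limma, and 0.15 with the replicate block). Olfm4, a stem cell transcript that Notch signalling is known to sustain in the crypt, read 10.73, 10.92 and 11.11 in knockout and 10.49, 10.65 and 10.26 in control, a difference of 0.45 ± 0.13 (SE; adjusted p = 0.48, limma). Olfm4 also belongs to the list of stem cell markers. Of these, 7 of 7 had a higher mean in knockout, against 49.3% of all genes, and 0 passed. An unadjusted p under 0.05 was found for 2, against 7.22% of all genes, and for 3 with the replicate block, against 10.9%. The stem cell list averaged 9.89 to 10.1 per knockout array and 9.69 to 9.95 per control array, and its part in the Notch values was not tested. Among genes chosen after their values were seen, Nrarp, a feedback inhibitor that Notch induces, differed by 0.05 ± 0.05 (SE) and was lower in replicate pair 2. Of the Hes and Hey genes among the further pathway genes, Hes2, Hes3, Hes7, Hey1 and Hey2 had a lower mean in knockout, and Hes5 and Heyl a higher one. Hes7 differed most, by -0.09 ± 0.03 (SE), and all lay between 7.77 and 7.94 in both groups. Rbpj, Notch3, Lfng and Mfng all lay between 7.83 and 7.89 in both groups, so these arrays say little about the nuclear partner or about the other fringe enzymes.

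**Figure D3:**
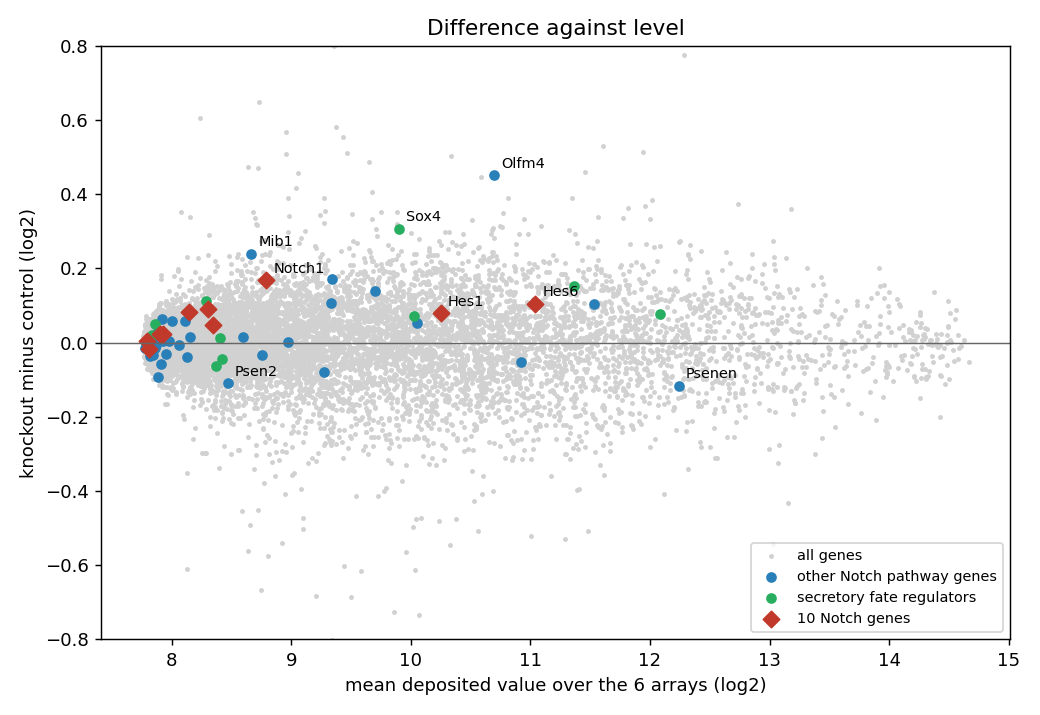
Difference of knockout minus control (log2) against the mean deposited value (log2) for all 19057 genes (grey), 39 further Notch pathway genes (blue), 10 regulators of secretory fate (green) and the 10 Notch genes (red diamonds). The axis ends at 0.8 and leaves out 11 genes. The Notch genes lie within the cloud of all genes, and those near the left edge are at the crowded low end of the scale.

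Of 10 further transcription factors of secretory fate, among them several that act with or after Atoh1, none passed the test across all genes. The mean was higher in knockout for 8 and lower for 2, while 49.3% of all genes were higher, and the median difference was 0.061. An unadjusted p under 0.05 was found for 1, against 7.22% of all genes, and for 2 with the replicate block, against 10.9%. Without the block this was Sox4, a factor of secretory progenitors. It read 10.06, 10.07 and 10.03 on the knockout arrays and 9.82, 9.81 and 9.62 on the control arrays. All 3 knockout arrays were higher, by 0.31 ± 0.06 (SE; adjusted p = 0.26, limma, and 0.15 with the replicate block), or 1.24-fold. Klf4, found in goblet cells, was lower on every knockout array, at 8.36, 8.30 and 8.36 against 8.38, 8.40 and 8.42. Spdef, which drives goblet and Paneth maturation, read 8.30, 8.27 and 8.46 in knockout and 8.22, 8.19 and 8.28 in control, a difference of 0.11 ± 0.06 (SE). Foxa3, a goblet cell factor, differed by 0.15 ± 0.10 (SE), and its knockout values of 11.49, 11.41 and 11.41 lay within the range of the control values of 11.24, 11.51 and 11.12.

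Markers of the intestinal cell lineages had more lower than higher means in knockout in 4 of 5 lists, while 49.3% of all genes were higher. No marker passed the test across all genes. These lists share genes with the transcription factors of secretory fate and are not separate from them. Spdef is also a goblet marker and Gfi1b a tuft marker. Neurog3 and Neurod1 are also enteroendocrine markers, and both are among the 3 of that list with a higher mean in knockout. Of 8 goblet markers 3 had a higher mean in knockout and 5 a lower one (median difference -0.013), of 5 measured Paneth markers 2 were higher and 3 lower (-0.099), and of 7 enterocyte markers 2 were higher and 5 lower (-0.018). Of 8 enteroendocrine markers 3 were higher and 5 lower (-0.12), with the granule gene Chga, chosen after its values were seen, at 8.25 ± 0.080 in knockout and 8.42 ± 0.016 in control (SD, n = 3 each; adjusted p = 0.39, limma). Of 6 tuft cell markers 4 were higher and 2 lower (0.039). Unadjusted p was under 0.05 for 0 goblet, 2 Paneth, 1 enteroendocrine, 1 enterocyte and 0 tuft markers, against 7.22% of all genes. With the replicate block these counts were 2 goblet, 2 Paneth, 5 enteroendocrine, 1 enterocyte and 0 tuft markers, against 10.9% of all genes. The 2 goblet markers, Muc2 and Spdef, were higher in knockout, by 0.29 and 0.11. Those of the Paneth, enteroendocrine and enterocyte lists were lower. The same number of enteroendocrine markers, 5 of 8, were lower in 3 of 3 replicate pairs, against 15.2% of all genes.

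Genes that resembled a Notch gene most closely over the 6 arrays were sought among the 6969 genes brighter than the upper quartile. For Hes6, at its brightest probe, these were Ran (Pearson r = 0.989), Pfkl (0.981) and Prelid2 (0.978), and for Rfng they were Foxo1 (0.995), Dhx37 (0.988) and Mreg (0.985). With only 6 arrays such values were common: 81 genes exceeded 0.9 for Hes6 and 104 for Rfng. They describe these arrays only.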

How the data were processed

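Samples were grouped by title. The authors deposited 1 log-scale value per probe and array, here read as log2, already equalised between arrays: sorted values differed by at most 0.0019. Background correction, software and log base were not found in the sources. With 3 arrays a group, precision is limited.

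Of 45281 probes, the platform annotation names 1 gene for 34885, several for 18 and none for 10378. By gene number, 34807 matched the GRCm38.p6 table. No dim gene was filtered out. Groups were compared with limma 3.58.1 in R 4.3.3 (lmFit, eBayes without trend, Benjamini-Hochberg adjustment over all genes, tested on simulated data), and single probes with a two-sided exact permutation test. Intervals are limma's.

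The members, lists and motifs were chosen with earlier results of these data known. Named are the 10 members, the 4 genes of lowest p in each of both wider lists, and the 3 genes most like the brightest member and the member of lowest p. Others are markers or are marked as chosen later. Some listed genes were not analysed here.

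Deviations from group means correlated over all genes at r = 0.35, 0.33 and 0.46 between arrays of replicate numbers 1, 2 and 3, so the numbers were taken as pairs in the blocked alternative. What a number stands for is not stated.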

Additional observations from a re-analysis of the deposited data

How the results depend on the processing

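In each of the 15 alternatives, as in the main comparison, 0 of the 10 Notch genes and 0 of the 39 further pathway genes passed. These covered the replicate block, probe averaging, normalization, filters on dim genes, the variance model, array weights, a fit of all probes and leaving out each array. Filters removed Notch2 and Atoh1 (median) and also Dll4, Jag1 and Rfng (upper quartile). The lowest adjusted p of a Notch gene was 0.32, for Rfng with the replicate block, where Dll1 had 0.34, and the block changed no call among the Notch genes. Of 143 recomputed differences, 139 kept their direction, but many of these could not turn round. The replicate block, the filters, the variance model and the fit of all probes leave a difference as it was. Probe averaging does so too for genes with 1 probe. Normalizing again hardly moves values that were already equalised between arrays. The count is therefore no measure of how stable the directions are. The 4 that turned round were Notch2 with averaged probes (0.0043), Jag1 without control replicate 2 (-0.00076), and Atoh1 without control replicate 3 (-0.0047) or knockout replicate 1 (-0.00089). Leaving out 1 array gave up to 0.036 for Jag1 and 0.016 for Atoh1. Notch1 ranged from 0.088 to 0.27, Dll1 from 0.068 to 0.11, Rfng from 0.057 to 0.096, Hes1 from 0.0076 to 0.13, Hes6 from 0.00013 to 0.17 and Gfi1 from 0.00051 to 0.085. The count of called genes over the whole array, 25, was 9 with the replicate block, 41 among genes above the upper quartile, 71 with a trended robust variance and 4 to 23 when 1 array was left out. The cause was not tested. Signal near the bottom of the scale limits Notch2, Dll4, Jag1 and Atoh1.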
